A study of Rattus norvegicus with 46 samples.

Results

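Genes of cholesterol synthesis and its control by the sterol regulatory element binding proteins (SREBPs) were followed in rat kidney after ischemia-reperfusion (IR). The genes were the mevalonate and isoprenoid enzymes Hmgcs1 and Idi1, the squalene enzymes Fdft1 and Sqle, the late sterol enzymes Cyp51 and Dhcr7, the transcription factor gene Srebf2 and its inhibitor gene Insig1. They were found by symbol among the 17245 gene symbols that had a probe set of their own on the array. A probe set measures 1 transcript cluster, and where a gene had several, the one with the highest mean over all arrays was used. A probe set was found for 7 of the 8 genes, and Hmgcs1 was not analysed here.

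Kidney RNA was hybridised to 46 Affymetrix Rat Gene 1.1 ST arrays, each labelled as 1 replicate of its group and taken here as 1 animal. All animals were male rats of the strain that the labels spell Wister. Naïve animals were uninjured and untreated. Injured animals had an intraperitoneal dose 30 min ahead of surgery. The dose was saline in the Vehicle groups, 3 mg/kg dexamethasone (Dex), a synthetic glucocorticoid, or 150 mg/kg valproic acid (VPA), which inhibits histone deacetylases. Warm ischemia of the left kidney, by a clamp on its artery, lasted 45 min, the right kidney was removed at the start of reperfusion, and kidneys were taken 3, 24 or 120 h post-IR. All 9 injured groups therefore shared surgery and loss of the other kidney, neither of which the naïve group had. No group had surgery without ischemia. Naïve animals were also anesthetised, and their kidneys were taken at once. The methods state that all 3 h studies were done first and the later times after them. Animals of the 3 h groups stayed under anesthesia until they were killed, while later ones woke and had buprenorphine, an analgesic. Time post-IR therefore cannot be told apart from order of the work, length of anesthesia or the analgesic. Each group held 4 or 5 animals.

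Cells build cholesterol from acetyl-CoA through mevalonate, isoprenoids, squalene and lanosterol. When sterol in the endoplasmic reticulum is low, the protein SCAP carries SREBP precursors to the Golgi, where the site-1 and site-2 proteases (encoded by Mbtps1 and Mbtps2) release a fragment that enters the nucleus and raises transcription of the pathway. When sterol is high, the INSIG proteins hold SCAP in the endoplasmic reticulum, and Insig1 is itself an SREBP target, so that the pathway restrains itself. In the kidney the proximal tubule holds most of the cortical mass and is the segment most exposed to ischemic damage.

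The promoters of the 2 genes with the largest differences described below, Insig1 and Dhcr7, are shown so that their short motifs can be compared. They are the 250 bases before the annotated start in RefSeq on build GRCr8, 5′ to 3′ on the strand of the gene, with motif matches in capitals. The Insig1 window lies at chr4:8057770-8058019 on the minus strand and that of Dhcr7 at chr1:208444184-208444433 on the plus strand. The annotated Insig1 gene reaches to 8057812, so the start used lies inside the gene and the window overlaps its 5′ end.
Insig1: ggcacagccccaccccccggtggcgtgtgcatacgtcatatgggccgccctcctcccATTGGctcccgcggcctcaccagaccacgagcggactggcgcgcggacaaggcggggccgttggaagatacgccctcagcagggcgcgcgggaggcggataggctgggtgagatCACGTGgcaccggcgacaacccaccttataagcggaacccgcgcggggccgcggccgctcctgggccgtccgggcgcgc
Dhcr7: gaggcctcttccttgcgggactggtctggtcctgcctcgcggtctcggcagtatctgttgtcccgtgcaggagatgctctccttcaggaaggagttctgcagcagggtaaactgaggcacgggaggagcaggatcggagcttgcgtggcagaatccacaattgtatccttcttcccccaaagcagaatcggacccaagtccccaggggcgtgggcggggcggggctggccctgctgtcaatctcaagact
The motifs searched on both strands of the 300 bases around the start were the sterol regulatory element TCACNCCAC, the CCAAT box bound by NF-Y, which acts beside SREBPs at many of their targets, and the E-box CACGTG. Insig1 held 1 CCAAT box, read on the opposite strand as ATTGG from 193 to 189 bases before the start, and 1 E-box from 79 to 74 bases before it. None of the 3 motifs matched in the Dhcr7 window. Promoters were in the table for 6 of the 8 genes, among which Hmgcs1 and Idi1 each held 2 CCAAT boxes, Srebf2 held 1 and Cyp51 held none of the motifs. The CCAAT box was thus in 4 of 6 promoters beside 37.5% of all 33469 promoters in the table, the E-box in 1 of 6 beside 6.42%, and the exact sterol regulatory element in 0 of 6 beside 1.12%. A match here is a description of letters only, and its absence says nothing of SREBP binding.

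Values are deposited signals, given as signals per animal and compared as log2(signal + 16), where a difference of 1 is 2-fold. All groups were fitted together with limma, and a gene was called at a difference of at least 2-fold with an adjusted p under 0.05. The adjustment ran over 14607 probe sets, those whose SD across the arrays was above the median. That filter kept Sqle, Cyp51, Dhcr7 and Insig1, and removed Idi1, Fdft1 and Srebf2, for which the p adjusted over all 29214 probe sets is given. Array medians lay between 64.7 and 87.5. The summed signal of 12 tubular injury genes, among them Havcr1 and Lcn2, was 3838 to 6564 in naïve kidneys (median 4367). In 7 of the 41 injured animals it lay within that range. These were Vehicle replicate 1 at 3 h (6214) and replicate 1 at 120 h (4627), and Dex replicate 4 at 24 h (6354). They also included VPA replicates 1 and 3 at 3 h (6267 and 6073) and VPA replicates 2 and 3 at 120 h (4816 and 5991). Most of these sums were nearer the top of the naïve range than its median. Differences of the 7 genes that passed and rest on these animals are also given without them below. For other genes named, the calls lost without 1 of these animals are stated. The methods state that arrays which failed a scan check were left out of the study's analysis, and whether any of them is among the 46 used here is not given in the sources used here. The summed signal of 12 proximal tubule genes, such as Slc34a1 and Lrp2, was 32775 to 39110 in naïve kidneys and 11085 to 36545 in Vehicle kidneys at 24 h. In whole kidney, fewer cells of a type and less RNA per cell cannot be told apart.

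The 7 measured genes moved modestly and not together. At 24 h Fdft1 was lower than naïve in all 3 treatments and Dhcr7 in Vehicle and VPA. At 3 h Insig1 was higher in Dex and Sqle in VPA, and all of these differences were under 2-fold. No gene was called at 2-fold in any of the 21 comparisons (9 with naïve, 6 of a drug with Vehicle and 6 between times), which makes 0 of 147 pairs of gene and comparison. Summed over the 21 comparisons, 2.0% of all tests on probe sets kept by the filter were called as higher and 1.42% as lower. The 3 genes removed by the filter could not be called, and none of them differed by 2-fold in any comparison. Without the fold threshold, 9 of the 84 pairs of the 4 genes kept by the filter passed the adjusted p, beside 7.72% higher and 4.97% lower over all tests. With adjustment over all probe sets 12 of 147 pairs passed, beside 4.94% and 3.47%, and 28 had an unadjusted p under 0.05, as did 20.1% of all tests. The members thus passed about as often as other probe sets. The 95% interval lay within 2-fold in both directions in 131 of the 147 pairs, and in 54 of the 63 pairs against naïve. The largest differences from naïve were 0.78 for Insig1 in Dex at 3 h and -0.96 for Dhcr7 in Vehicle at 24 h. The 9 comparisons with naïve share the same 5 naïve animals.

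**Figure D1:**
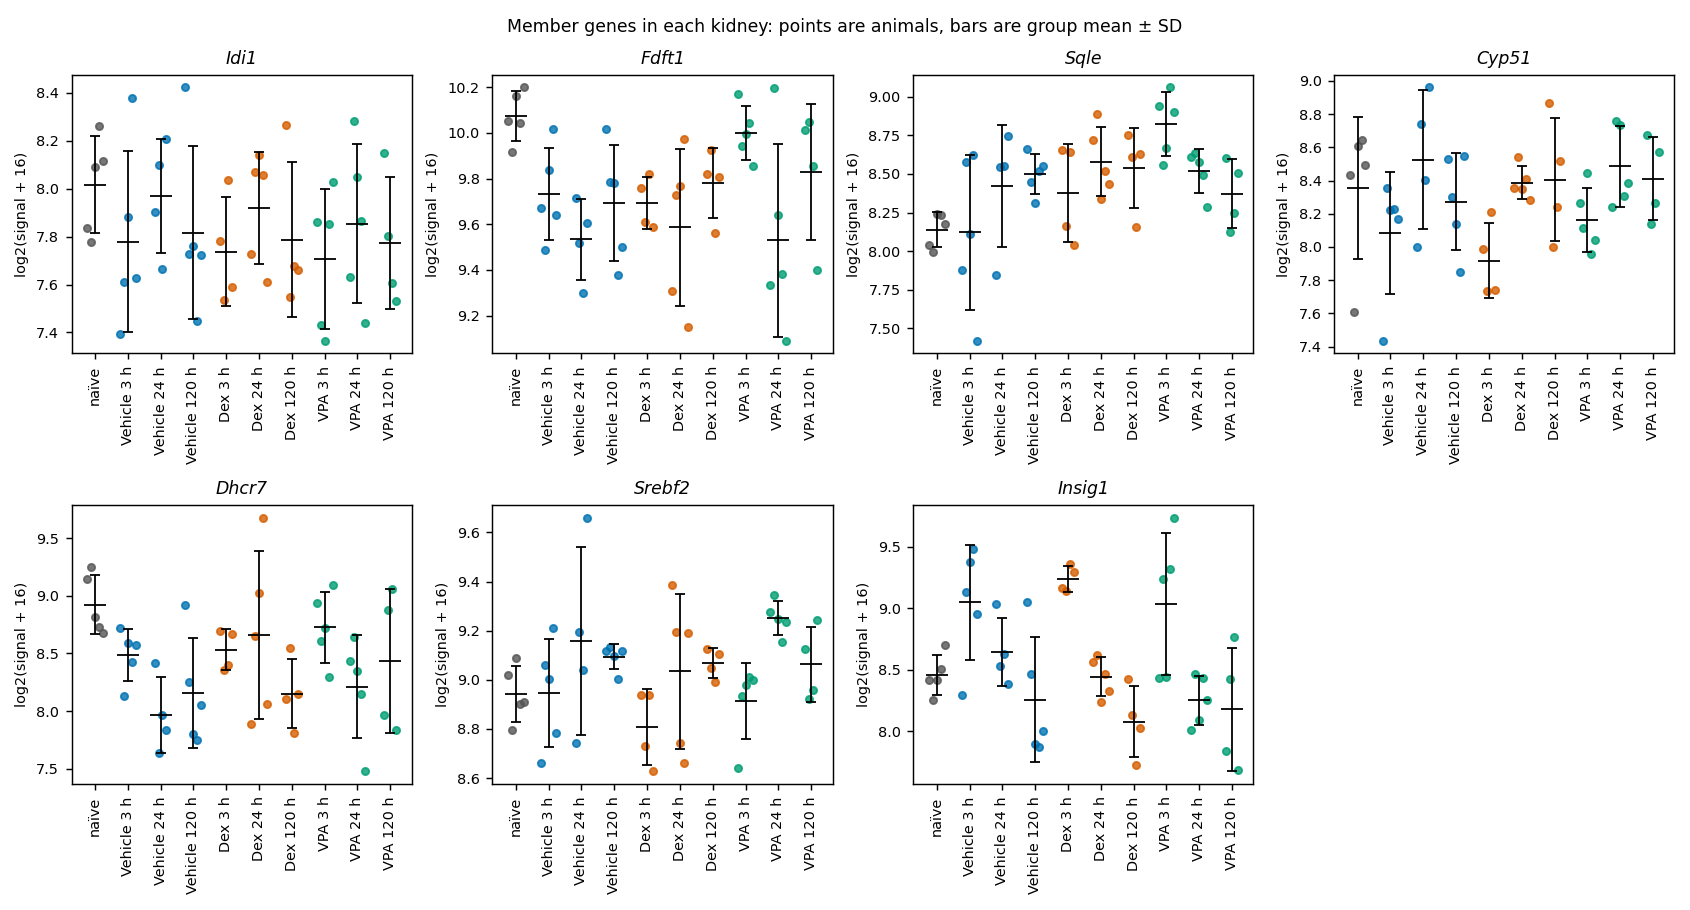
Level of the 7 measured genes in each of 46 kidneys, as log2(signal + 16), by group. Points are animals and bars are the group mean ± SD (n = 4 or 5). Dhcr7 is lowest in Vehicle at 24 h, and Insig1 is highest in the 3 h groups.

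Idi1 encodes isopentenyl-diphosphate isomerase, which makes the isoprenoid building block that later enzymes join. Its signals in naïve kidneys were 213, 204, 257, 291 and 261. The highest and lowest group means were those of naïve (8.02 ± 0.20 on the log2 scale, SD, n = 5) and VPA at 3 h (7.71 ± 0.29, SD, n = 5). The VPA animals at 3 h had 217, 156, 149, 215 and 245, which overlapped with the naïve range. All 9 injured groups had a lower mean than naïve, by 0.05 to 0.31, and none of these differences passed the test (adjusted p over all probe sets from 0.29 to 0.92). In 21 of the 41 injured animals the signal was below the lowest naïve value. Since all 9 groups are set against the same naïve animals, the shared direction is not independent evidence.

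Fdft1 encodes squalene synthase, which commits isoprenoids to sterols. Naïve kidneys had signals of 1045, 950, 1128, 1039 and 1160. Vehicle kidneys at 24 h had 824, 718, 613 and 763, Dex kidneys at 24 h had 617, 833, 856, 990 and 553, and VPA kidneys at 24 h had 630, 1159, 782, 652 and 529. All Vehicle animals and 4 of 5 animals in each drug group were below every naïve animal, the exceptions being Dex replicate 4 and VPA replicate 2. In Vehicle 6.5% of probe sets kept by the SD filter, which removed Fdft1, stood apart as lower. Fdft1 was lower than naïve by -0.54 ± 0.17 (log2, SE) in Vehicle, -0.49 ± 0.16 in Dex and -0.54 ± 0.16 in VPA at 24 h, with p adjusted over all probe sets of 0.017, 0.031 and 0.0093. Over all probe sets, 8.91%, 5.57% and 7.71% passed as lower in these comparisons. Leaving out 1 animal could end these calls. The Vehicle call was lost without Vehicle replicate 3 (adjusted p = 0.082), the VPA call without VPA replicate 5 (0.055), and the Dex call without naïve replicate 3, 4 or 5 or Dex replicate 1 or 5 (0.053 to 0.13). Without Dex replicate 4, which stood within the naïve injury range, the Dex difference was -0.59 (0.0087). At 3 h the VPA animals had 1138, 967, 1003, 1040 and 909, close to naïve, and VPA was lower at 24 h than at 3 h by -0.47 ± 0.16 (adjusted p over all probe sets = 0.024), where 7.29% of probe sets passed as lower. That call was lost without VPA replicate 1 at 3 h (adjusted p = 0.061) or replicate 1, 4 or 5 at 24 h (0.069, 0.062 and 0.11), and kept without replicate 3 at 3 h (-0.47, 0.036). At 120 h the signals were 650 to 1019 in Vehicle, 740 to 955 in Dex and 659 to 1043 in VPA, and the differences from naïve did not pass.

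Sqle encodes squalene epoxidase, which catalyses a rate-limiting step after squalene. Naïve kidneys had 248, 239, 286, 285 and 273, and VPA kidneys at 3 h had 476, 361, 391, 519 and 461. Every VPA animal at 3 h was above every naïve animal, where 5.8% of probe sets tested stood apart in that direction. The difference was 0.69 ± 0.17 (log2, SE), or 1.61-fold (adjusted p = 0.0052), and 6.89% of probe sets tested passed as higher. Without VPA replicate 1 or 3, whose injury sums were in the naïve range, it was 0.66 (0.013) or 0.73 (0.0051). Of the 41 injured animals, 33 were above the highest naïve value, and no animal overlapped with naïve in Vehicle at 120 h, in Dex at 24 h or in VPA at 24 h, where 5.04%, 6.92% and 17.5% of probe sets tested stood apart as higher. Apart from VPA at 3 h, the group differences from naïve lay between -0.02 and 0.44 and did not pass (adjusted p of 0.062 in Dex at 24 h). Without 1 animal 2 of them did, namely Vehicle at 24 h without its replicate 1 (0.48, adjusted p = 0.04) and Dex at 24 h without its replicate 3 (0.50, 0.046). VPA had the highest mean at 3 h, and Vehicle at 3 h the lowest of all groups.

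Vehicle kidneys at 3 h had Sqle signals of 219, 367, 260, 378 and 155, so that replicates 2 and 4 reached the VPA range at its lower end. Sqle was higher in VPA than in Vehicle at 3 h by 0.70 ± 0.17 (log2, SE), or 1.63-fold (adjusted p = 0.049), where 0.301% of probe sets tested passed as higher. It was the only one of the 7 genes to pass in any of the 6 comparisons of a drug with Vehicle. The call was close to the threshold: it was lost in 5 of 8 alternative fits (adjusted p from 0.051 to 0.4, the highest in a fit of these 2 groups alone) and without Vehicle replicate 1 or 3 or VPA replicate 1, 3, 4 or 5 (adjusted p from 0.065 to 0.15). Without VPA replicate 1 or 3, which stood within the naïve injury range, the difference was 0.67 (0.15) or 0.74 (0.099), and without Vehicle replicate 1 it was 0.64 (0.065). The summed injury signal at 3 h was 6073 to 9972 in VPA and 6214 to 13902 in Vehicle animals, and its part in the difference was not tested.

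Cyp51 encodes lanosterol demethylase, the first enzyme after ring closure. Naïve kidneys had 329, 179, 375, 384 and 344, and replicate 2 was far below the others. Dex kidneys at 3 h, the lowest group, had 238, 197, 280 and 198, and were lower than naïve by -0.44 ± 0.20 (log2, SE, adjusted p = 0.13). Vehicle kidneys at 24 h, the highest group, had 240, 412, 323 and 483. No comparison of Cyp51 passed. Within Dex, the 24 h animals (312, 357, 310, 324 and 295) were all above the 3 h animals, with a difference of 0.47 ± 0.20 (adjusted p = 0.087), where 11.9% of probe sets tested stood apart as higher.

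Dhcr7 encodes 7-dehydrocholesterol reductase, which makes the last conversion to cholesterol in one branch of the pathway. Naïve kidneys had 550, 593, 436, 408 and 394. Vehicle kidneys at 24 h had 325, 183, 234 and 212, VPA kidneys at 24 h had 330, 384, 309, 267 and 162, and Dex kidneys at 24 h had 220, 387, 506, 805 and 252. Every Vehicle and VPA animal was below every naïve animal, where 6.5% and 7.35% of probe sets tested stood apart in that direction, while the Dex animals spread from below to above the naïve range. Dhcr7 was lower by -0.96 ± 0.28 (log2, SE) in Vehicle, to 0.513 of the naïve level (adjusted p = 0.0074), and by -0.71 ± 0.26 in VPA (0.031). In these comparisons 11.9% and 11.2% of probe sets tested passed as lower. The VPA call was lost without naïve replicate 1 or 2 or VPA replicate 4 or 5 (adjusted p from 0.057 to 0.14), and the Vehicle call was kept without any 1 animal (highest adjusted p = 0.042). In Dex at 24 h the difference was -0.26 ± 0.26 and did not pass. Without Dex replicate 4, the animal at 805, it was -0.52 (adjusted p = 0.13). Dhcr7 was 0.70 ± 0.28 higher in Dex than in Vehicle at 24 h, which did not pass (adjusted p = 0.37).

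At 120 h Dhcr7 signals were 469, 290, 206, 199 and 250 in Vehicle, 258, 357, 208 and 268 in Dex, and 234, 455, 519 and 212 in VPA. Vehicle replicate 1 and VPA replicates 2 and 3 were within the naïve range and the other animals of these 3 groups, with all of Dex, were below it. In Dex at 120 h 11.5% of probe sets tested stood apart as lower. Dhcr7 was lower than naïve by -0.77 ± 0.26 (log2, SE) in Vehicle (adjusted p = 0.044) and by -0.77 ± 0.28 in Dex (0.034), where 4.22% and 9.39% of probe sets tested passed as lower. The Vehicle call was lost without any 1 of 9 of the 10 animals (adjusted p from 0.052 to 0.11). The exception was Vehicle replicate 1, with an injury sum in the naïve range, without which the difference was -0.96 (0.0089). The Dex call was lost without naïve replicate 1 or 2 or Dex replicate 1, 3 or 4 (0.067 to 0.12). In VPA at 120 h the difference was -0.49 ± 0.28 and did not pass. It was -0.64 without replicate 2 and -0.70 without replicate 3, and neither passed (0.13 and 0.092).

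Srebf2 encodes SREBP2, the transcription factor that drives most genes of the sterol pathway once it is cleaved. Naïve kidneys had signals of 502, 428, 529, 463 and 465, and VPA kidneys at 24 h, the highest group, had 604, 635, 592, 554 and 587. All 5 VPA animals at 24 h were above all naïve animals. Among probe sets kept by the SD filter, which removed Srebf2, 17.5% stood apart as higher. The difference was 0.31 ± 0.13 (log2, SE) and did not pass (adjusted p over all probe sets = 0.076). VPA kidneys at 3 h had 384, 473, 489, 501 and 495, all below the 24 h animals. Of the probe sets kept by the filter, 16.8% stood apart in this way. Srebf2 was higher at 24 h than at 3 h within VPA by 0.34 ± 0.13, or 1.26-fold (adjusted p over all probe sets = 0.048), where 15.3% of probe sets passed as higher. This call was lost without any 1 of the 10 animals (0.054 to 0.14), and the difference without VPA replicate 1 at 3 h was 0.27. No other comparison of Srebf2 passed, and its mean lay within 0.22 of naïve in the other 8 injured groups. The widest spread was in Vehicle at 24 h, with 413, 569, 510 and 794.

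Insig1 encodes the protein that retains SCAP and also takes part in the sterol-driven removal of HMG-CoA reductase. Naïve kidneys had 325, 289, 325, 348 and 399. At 3 h the signals were 297, 545, 647, 699 and 479 in Vehicle, 557, 547, 640 and 611 in Dex, and 329, 587, 331, 621 and 837 in VPA. Every Dex animal was above every naïve animal, while Vehicle replicate 1 and VPA replicates 1 and 3 lay among the naïve values. These 3 animals are the ones with injury sums in the naïve range at that time.

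Insig1 was higher than naïve at 3 h by 0.78 ± 0.24 (log2, SE) in Dex, or 1.72-fold (adjusted p = 0.016), where 11.2% of probe sets tested passed as higher and 12.5% stood apart in that direction. The differences were 0.59 ± 0.23 in Vehicle (0.063) and 0.57 ± 0.23 in VPA (0.086), which did not pass. Without Vehicle replicate 1 the Vehicle difference was 0.78 (0.01), and without VPA replicate 1 or 3 the VPA difference was 0.72 (0.032 or 0.029). Whether the Vehicle or the VPA difference passed therefore turned on 1 animal, while the Dex call was kept without any 1 animal (highest adjusted p = 0.049). The difference between Dex and Vehicle at 3 h was 0.19 ± 0.24 and did not pass (adjusted p = 1). The summed signal of 5 red blood cell genes was 1299 to 3759 in naïve kidneys, and 3365 to 11633 in Vehicle, 4187 to 5344 in Dex and 2263 to 5050 in VPA at 3 h. Of these 5 genes Slc4a1 was also on the list of collecting duct genes, so the sum is not of blood alone. Over the 46 kidneys the log2 of this sum had a Pearson r of 0.63 with Insig1, or 0.31 relative to group means. The part of this sum in the 3 h differences was not tested.

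At 24 h the Insig1 signals were 508, 354, 379 and 318 in Vehicle, 361, 377, 286, 337 and 305 in Dex, and 242, 337, 257, 330 and 290 in VPA. The Dex animals at 24 h were all below those at 3 h, where 8.2% of probe sets tested stood apart as lower, and the VPA animals overlapped. The difference between 24 and 3 h was -0.80 ± 0.24 (log2, SE) within Dex (adjusted p = 0.013) and -0.78 ± 0.23 within VPA (0.0071), where 9.12% and 10.7% of probe sets tested passed as lower. Neither call was lost without any 1 animal, and without VPA replicate 1 or 3 at 3 h the VPA difference was -0.93 (0.0024 or 0.0022). At 120 h the signals were 218 to 515 in Vehicle, 195 to 328 in Dex and 190 to 418 in VPA, and none of these groups differed from naïve beyond the test. The highest animals, Vehicle replicate 1 at 515 and VPA replicate 3 at 418, had injury sums in the naïve range.

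A second probe set carries the Insig1 symbol, and it gave the same picture. Its naïve signals were 305, 299, 266, 308 and 362, and at 3 h it had 289, 499, 573, 692 and 592 in Vehicle, 551, 479, 691 and 571 in Dex, and 319, 526, 289, 561 and 860 in VPA. The same 3 animals, Vehicle replicate 1 and VPA replicates 1 and 3, stayed among the naïve values. Against naïve at 3 h the difference was 0.86 ± 0.26 (log2, SE) in Dex (adjusted p = 0.015) and 0.70 ± 0.25 in Vehicle (0.04), so that Vehicle passed on this probe set, where 9.27% of those tested passed as higher, and not on the first. Within Dex and VPA, 24 h was lower than 3 h by -0.77 ± 0.26 (0.029) and -0.72 ± 0.25 (0.022). Across the 46 kidneys the probe sets had a Pearson r of 0.961, which describes the same RNA samples read by different probes.

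**Figure D2:**
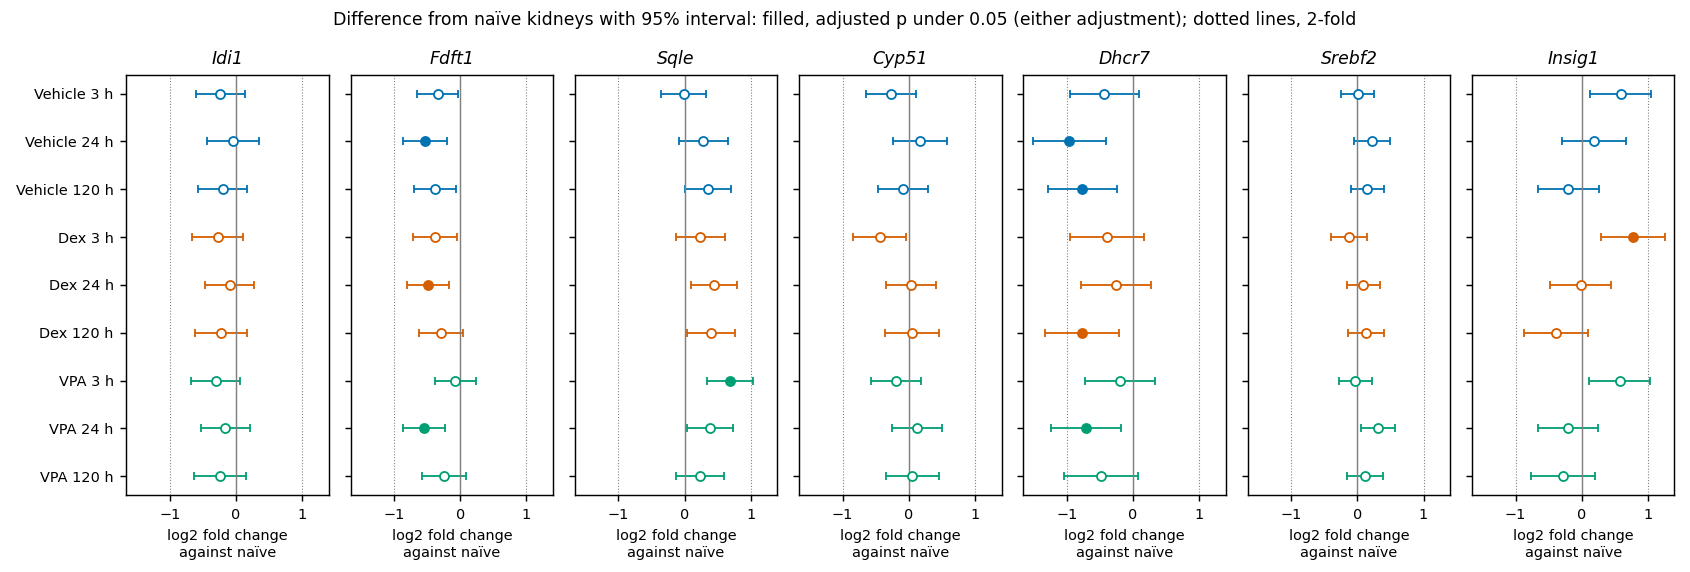
Difference of each of the 7 genes from naïve in the 9 injured groups, as log2 with its 95% interval. Filled points passed an adjusted p of 0.05 and dotted lines mark 2-fold. Dhcr7 in Vehicle at 24 h comes closest to the lower line at -0.96, and Insig1 in Dex at 3 h to the upper at 0.78.

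The question of whether either pretreatment altered the pathway was addressed by 6 comparisons with Vehicle at the same time and by 6 interactions, which test whether a drug difference itself changed between times. Only Sqle in VPA at 3 h passed among the drug comparisons. None of 42 gene and interaction pairs passed by limma (lowest adjusted p = 0.28), where 0.0148% of all interaction tests did, and 2 had an unadjusted p under 0.05, beside 7.32% of all interaction tests. Both were for Sqle, where VPA less Vehicle was smaller at 120 h than at 3 h by -0.83 ± 0.25 (log2, SE, adjusted p = 0.37) and at 24 h than at 3 h by -0.61 ± 0.25. It was therefore not shown that the VPA difference in Sqle was limited to 3 h.

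The wider sterol pathway was read from a list of 22 enzymes, 18 of which had a probe set and 8 of which passed the SD filter. In Vehicle at 3 h, 14 of the 18 were lower than naïve, and the share of all probe sets that were lower was not counted. The median difference of the 18 was -0.241, beside 0.069 over probe sets kept by the SD filter and 0.019 over all probe sets. With adjustment over all probe sets 4 of 18 passed as lower, where 9.57% of all probe sets did. These were Ggps1, which makes geranylgeranyl diphosphate (-0.46 ± 0.13, log2, SE), Lss, the lanosterol synthase (-0.40 ± 0.13), and the late enzymes Nsdhl (-0.29 ± 0.10) and Ebp (-0.46 ± 0.12). Without Vehicle replicate 1, whose injury sum was in the naïve range, Ggps1 (-0.37) and Ebp (-0.39) still passed, while Lss (-0.29, adjusted p = 0.14) and Nsdhl (-0.29, 0.063) did not. Nsdhl and Ebp were also lower in Dex at 3 h, by -0.44 ± 0.11 and -0.50 ± 0.13. In VPA at 3 h Ebp passed as lower too (-0.37, adjusted p over all probe sets = 0.049). That call was lost without VPA replicate 3 (-0.36, 0.068) and kept without replicate 1 (-0.46, 0.013). Nsdhl was higher at 24 h than at 3 h in all 3 treatments (0.40, 0.62 and 0.28 in Vehicle, Dex and VPA, adjusted p over all probe sets of 0.013, 6.4e-05 and 0.035).

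The only enzyme called at 2-fold was Tm7sf2, a sterol C14 reductase. It fell by 1.09 (SE 0.28, log2) in Vehicle at 24 h (adjusted p = 0.0033) and by 1.12 (SE 0.26) in VPA at 24 h (0.0013), where 4.23% and 3.55% of probe sets tested were called as lower. Lbr, a lamin B receptor that carries the same reductase activity, was higher in these groups by 0.45 ± 0.15 (0.023) and 0.68 ± 0.14 (0.00049). There 17.1% and 21.8% of probe sets tested passed as higher. Fdps, the farnesyl diphosphate synthase that feeds Fdft1, was higher in Dex at 3 h (0.51 ± 0.16, 0.02), Dex at 24 h (0.53 ± 0.15, 0.011) and VPA at 3 h (0.57 ± 0.15, 0.0098). In these comparisons 11.2%, 11.9% and 6.89% of probe sets tested passed as higher. Enzymes of the pathway thus lay on both sides of naïve in the same groups. For VPA against Vehicle at 3 h, 16 of 18 were higher in VPA, and 1 passed, which was Sqle. The median of the 18 was 0.179, beside 0.025 over probe sets kept by the SD filter and 0.049 over all probe sets. The share of all probe sets that were higher was not counted. The Sqle call was lost without Vehicle replicate 1 or VPA replicate 1 or 3. Whether the shift of the 18 held without these animals was not tested.

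**Figure D3:**
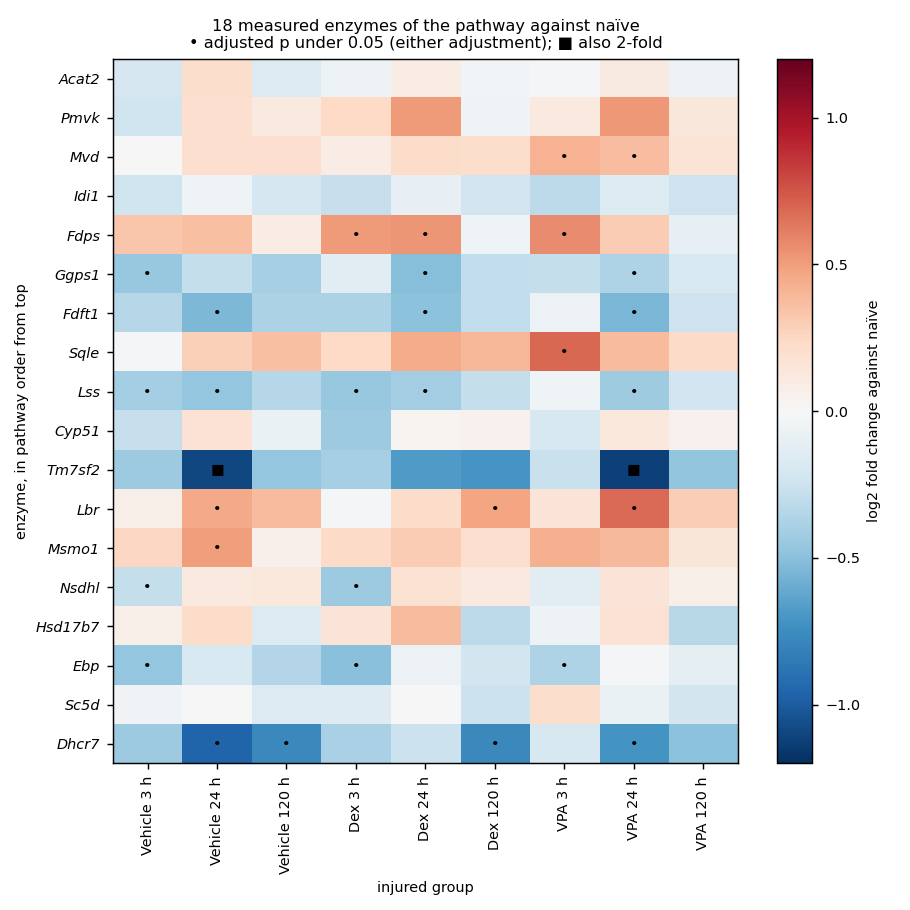
Differences from naïve of the 18 measured sterol enzymes in 9 injured groups, coloured by log2 difference. A dot marks an adjusted p under 0.05 and a square a change of at least 2-fold as well. Squares stand only at Tm7sf2 in Vehicle and VPA at 24 h.

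Of 7 regulators 6 were measured, and apart from Insig1 and Srebf2 they were read with adjustment over all probe sets. Insig2, the second retention protein, was lower in Vehicle at 3 h (-0.59 ± 0.14, log2, SE, adjusted p = 0.0019) and 24 h (-0.65 ± 0.14, 0.0018), in Dex at 3 h (-0.57 ± 0.14, 0.0044) and in VPA at 24 h (-0.48 ± 0.14, 0.008). Mbtps1 was lower in all 3 groups at 3 h, by -0.35 ± 0.09, -0.40 ± 0.09 and -0.41 ± 0.09 in Vehicle, Dex and VPA. Mbtps2 was lower at 3 h in Vehicle (-0.39 ± 0.12, 0.022) and Dex (-0.51 ± 0.13, 0.0044). Over all probe sets, 9.57%, 8.3% and 5.32% passed as lower than naïve at 3 h in Vehicle, Dex and VPA. At 24 h 8.91% did in Vehicle and 7.71% in VPA. Scap was higher at 24 h than at 3 h in all 3 treatments (0.43 ± 0.11, 0.51 ± 0.11 and 0.52 ± 0.10), where 8.83%, 9.95% and 15.3% of all probe sets passed as higher. Among 5 measured SREBP targets of sterol uptake and transport, Tmem97 was higher at 24 h than at 3 h in each treatment (0.64 ± 0.22, 0.81 ± 0.22 and 0.89 ± 0.20). In these comparisons 13.2%, 13.2% and 22.4% of probe sets tested passed as higher. The Tmem97 call in Vehicle was lost without replicate 1 at 3 h (0.55, adjusted p = 0.085). Rdh11, a retinol dehydrogenase, was higher in VPA than in Vehicle at 3 h by 0.61 ± 0.15 (adjusted p = 0.045). Against naïve it was -0.56 ± 0.15 in Vehicle (0.0055) and 0.05 ± 0.15 in VPA. The drug difference was lost without Vehicle replicate 1 at 3 h (0.061) or VPA replicate 1 or 3 (0.23 or 0.18).

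Fatty acid synthesis, the SREBP branch best known from SREBP1, held larger differences. Of 13 genes 12 were measured. Acss2, which makes acetyl-CoA from acetate, fell by 1.89 (SE 0.41, log2) in Vehicle at 24 h (adjusted p = 0.00092) and by 1.72 (SE 0.38) in VPA at 24 h (0.00078). Pnpla3, a lipase-family gene, fell by 1.25 (SE 0.35) in Vehicle at 24 h (0.0063). Both genes were called at 2-fold in Vehicle, Dex and VPA at 24 h and in Dex at 120 h, which makes 2 of 12 in each group, beside 4.23%, 2.59%, 3.55% and 3.73% of probe sets tested. In Vehicle at 120 h Acss2 was also called (-1.17, adjusted p = 0.039), where 1.51% of probe sets tested were called as lower. Pnpla3 passed there at just under 2-fold (-0.97, 0.046). Genes of this list did not all fall by 24 h. Between 3 and 24 h Acaca rose in Vehicle (0.65, adjusted p = 0.039) and VPA (0.73, 0.0075). Acss2 fell in the same comparisons (-1.28, 0.025 and -1.33, 0.0067). The Acaca rise in Vehicle was lost without replicate 1 at 3 h (0.56, 0.092). Within Dex, Fads1 and Scd2, which desaturate fatty acids, rose between 24 and 120 h by 1.41 ± 0.24 (0.00043) and 1.30 ± 0.29 (0.005). In that comparison 2.14% of probe sets tested were called as higher at 2-fold. Among 11 genes of sterol efflux and the LXR receptors, Ch25h, which makes 25-hydroxycholesterol, rose 2.14-fold in Vehicle at 3 h (adjusted p = 0.00097). Abca1, the cholesterol exporter, rose in Dex at 120 h by 1.25 ± 0.28 (log2, SE, 0.0016). Against naïve, 3.18% and 4.76% of probe sets tested were called as higher at 2-fold in these groups.

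The 7 genes did not follow one another closely. Over 46 kidneys, Pearson r between their log2 values ran from -0.57 to 0.65, and 15 of 21 pairs were positive. The closest pairs were Fdft1 with Dhcr7 at 0.65 and Cyp51 with Srebf2 at 0.63, and the most opposed was Dhcr7 with Srebf2 at -0.57. Fdft1 and Idi1 had 0.48, which was 0.69 when each animal was taken relative to its group mean. These values come from the same arrays, which share depth of signal and tissue makeup, and are given as a description.

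Levels of Dhcr7 and Fdft1 correlated negatively with tubular injury genes across the animals. The Pearson r with the log2 of the summed signal of the 12 injury genes was -0.78 for Dhcr7 and -0.69 for Fdft1. With the 12 proximal tubule genes it was 0.75 and 0.71. With 7 genes of the loop and distal tubule it was 0.80 and 0.70, and with 7 macrophage genes Dhcr7 had -0.61. Srebf2 had the opposite signs, at 0.55 with injury and -0.68 with proximal tubule genes. Insig1 had -0.35 and 0.47, and its r was 0.54 with the loop and distal tubule genes and -0.61 with 7 fibroblast genes. Sqle had 0.29 and -0.33, Cyp51 had 0.29 and -0.45, and Idi1 had -0.14 and 0.06. Relative to group means, Dhcr7 had -0.76 with injury genes and 0.76 with proximal tubule genes, and Fdft1 had -0.54 and 0.63. The injury sum was 9891 to 26437 in Vehicle and 14767 to 28550 in VPA at 24 h, against 3838 to 6564 in naïve kidneys. The loop and distal tubule sum was 13743 to 19160 in naïve kidneys (median 18046) and 2783 to 13564 in Vehicle at 24 h (median 4350). The part of these genes in the Dhcr7 and Fdft1 differences was not tested.

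**Figure D4:**
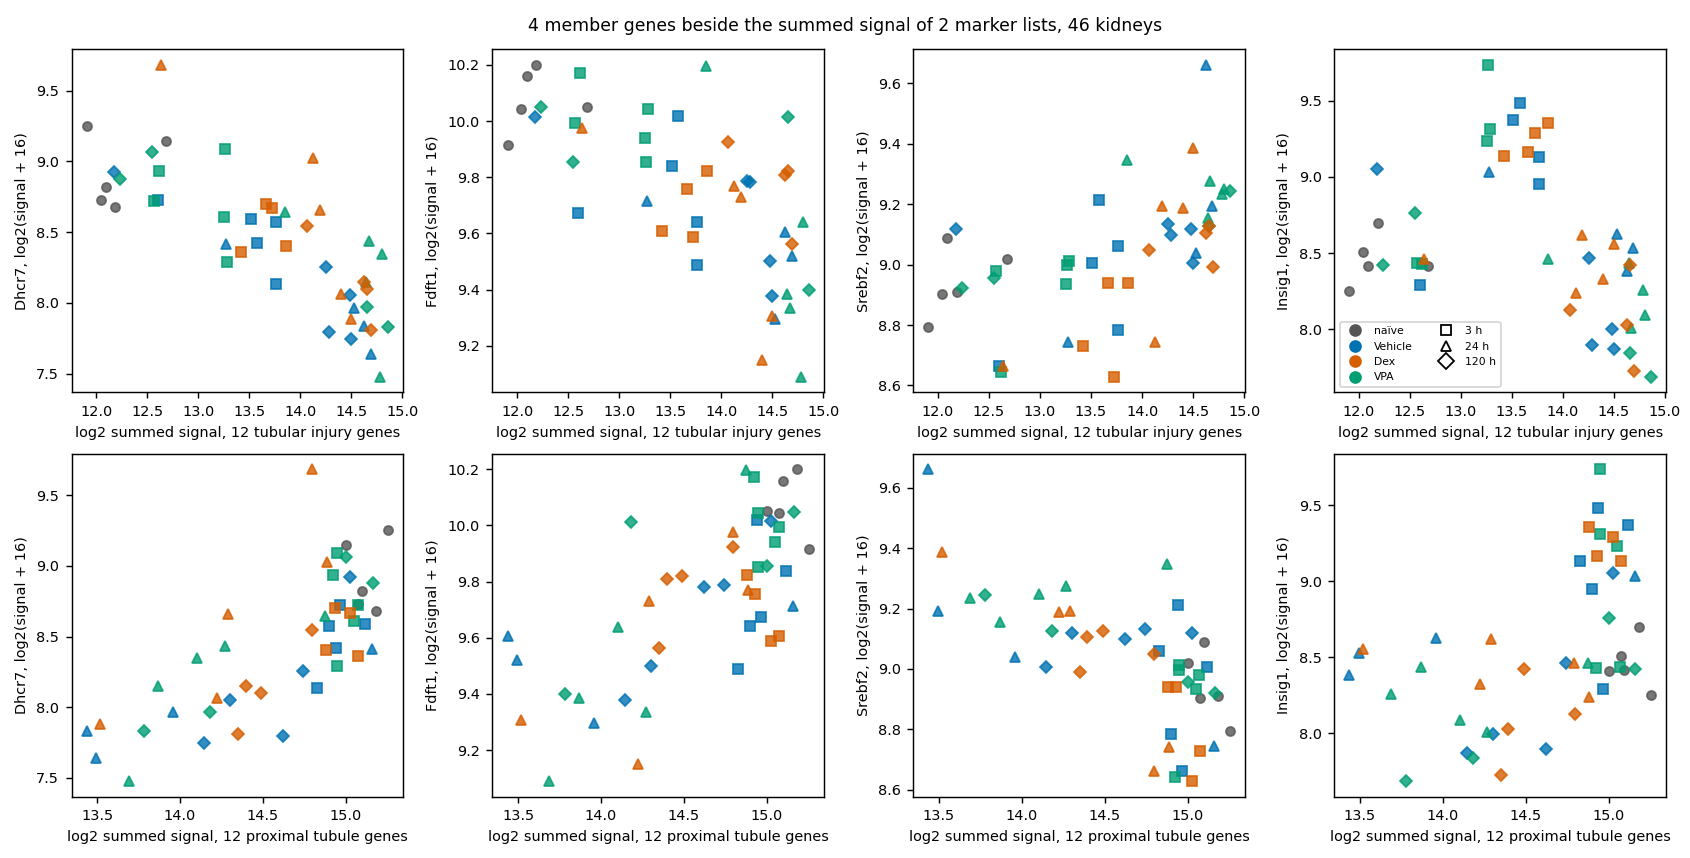
Log2 signals of Dhcr7, Fdft1, Srebf2 and Insig1 in 46 kidneys against the log2 summed signal of 12 tubular injury genes and of 12 proximal tubule genes. Colours are treatments and shapes are times. Dhcr7 has r = -0.78 with the injury sum and r = 0.75 with the proximal tubule sum.

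The genes most like the mean of the 7 were sought among 8920 genes that passed the SD filter, by Pearson r over the 46 kidneys. The median r was -0.06. The 10 highest were Ndrg4 (0.681), Abcb9 (0.666), Sorl1 (0.662), Pde1a (0.66), Scin (0.643), Cabp1 (0.635), Prox1 (0.62), Tesc (0.616), Slc19a2 (0.616) and Ctnnal1 (0.61). None of the 10 was in the sterol lists. Only the list genes that passed the SD filter could be found in this way, so their absence from the 10 says little. Those genes ranged from Tm7sf2 at rank 39 (r = 0.542) to Abca1 at rank 8336 (r = -0.359). Taken relative to group means, 6 of the 10 remained among the 10 highest, and 8 did after quantile normalisation.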

How the data were processed

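Rat Gene 1.1 ST arrays (Affymetrix) were hybridised with kidney RNA, 46 in all, from 10 groups. The deposited values are linear probe set intensities that the authors made with iterPLIER in Expression Console (version 1.1 in the submitters' processing notes). The number of arrays limits the precision. Genes were named from the platform annotation (18644 of 29214 probe sets had 1 symbol, 962 several and 9608 none), and no name was taken from a probe set with several. Intensities were taken as log2(signal + 16) and fitted in limma 3.58.1 (R 4.3.3) with all groups in 1 model and two-sided moderated tests. Benjamini-Hochberg adjustment ran over the 14607 probe sets whose SD was above the median, and again over all 29214. A call needed 2-fold and an adjusted p under 0.05. The members were named in every comparison, other lists by counts, medians and up to 4 called genes, and the 10 genes nearest the members' mean by r. Genes of the lists that were not called were added after their values were seen. Members and lists were chosen with earlier results of these data known. The labels tie no array to a cage or day, so p-values measure the spread between these samples, some of which may share a cage. Alternatives were quantile normalisation, array weights, a pseudocount of 1, a filter on dim probe sets, adjustment over all probe sets, unmoderated analysis of variance, fits of only the groups compared, the mean of all probe sets, a replicate block and leaving out each array. The code was tested on simulated data.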

Additional observations from a re-analysis of the deposited data

Results flagged for a closer look

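Among 70 sets of a gene in a group, 4 held an animal far from the rest of its group by Dixon's criterion, and chance flags about 1 in 20 groups. Cyp51 was lowest at 179 in naïve replicate 2 and at 157 in Vehicle replicate 1 at 3 h. Srebf2 was lowest at 498 in Vehicle replicate 4 at 120 h, where the group was otherwise very narrow, and at 384 in VPA replicate 1 at 3 h. Vehicle replicate 1 and VPA replicate 1 at 3 h also had tubular injury sums in the naïve range.

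With adjustment after the SD filter, 3 differences between treatments at 1 time or between times of 1 treatment passed. Insig1 was lower at 24 h than at 3 h by -0.80 (log2) within Dex and -0.78 within VPA, and Sqle was higher by 0.70 in VPA than in Vehicle at 3 h. The Sqle difference was lost in 6 of 9 fits that left out 1 animal, and the Insig1 differences in none. With adjustment over all probe sets, Fdft1 (-0.47) and Srebf2 (0.34), which the SD filter removed, also passed between 24 and 3 h within VPA.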

How the results depend on the processing

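No difference that passed changed sign under any alternative, while 21 of 1197 values that passed no test, counted over the alternatives other than leaving out 1 animal, did. The count of members called at 2-fold in Vehicle at 24 h against naïve went from 0 to 1 (Dhcr7) with quantile normalisation, array weights, a pseudocount of 1 or the replicate block, and ran from 0 to 1 when 1 animal was left out; elsewhere it was 0 to 0. With no fold threshold it was 1 in 9 comparisons: 6 against naïve (24 and 120 h in Vehicle, 3 and 120 h in Dex, 3 and 24 h in VPA), VPA against Vehicle at 3 h, and 24 against 3 h within Dex and within VPA. The 9 pairs that passed without a fold threshold became 24 with array weights and 14 with the filter on dim probe sets, where the weights stopped before converging and the dim filter tested all 7 members (147 pairs in place of 84), and 5 (without naïve replicate 1) to 13 when 1 animal was left out. Interactions that passed were 0 to 0. The cause of the other shifts was not tested. Same-numbered replicates of different groups did not deviate together (mean r 0.014 over 195 pairs), and with the number as a block 8 pairs passed, Sqle in VPA against Vehicle at 3 h (adjusted p = 0.051) and Srebf2 in VPA between 24 and 3 h (0.061) being lost. The Dhcr7 call in Vehicle at 120 h was lost in 3 of 9 alternatives. Signals near background limit dim genes, with array lower quartiles of 19.9 to 37.6.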
